A study of Bombyx mori with 3 samples.

Results

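The proteasome is the large protease complex that degrades ubiquitin-tagged proteins in the cytosol and nucleus. Its core particle is a barrel of stacked rings, in which outer alpha subunits gate the entrance and inner beta subunits, some of them catalytic, cleave the substrate. A regulatory cap binds the end of the barrel, where ATPase subunits unfold the substrate and non-ATPase subunits recognise and remove ubiquitin. In many animals the genes for these subunits are transcribed together, and their mRNA levels tend to move as a group when proteasome activity is impaired.

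Probes for these subunits were taken from the array annotation by the wording of the gene description (proteasome, 26S protease or a PSM symbol), leaving out control spots and probes worded as ubiquitin ligases or ubiquitin-conjugating enzymes. This gave 41 of 23229 gene probes. By their descriptions, 17 stand for the core particle (9 alpha, 8 beta), 17 for the regulatory cap (5 ATPase, 12 non-ATPase) and 7 for other proteins. Of these 7, 3 resemble proteasome activator subunit 4, a cap-like activator of the core particle, 2 resemble ECM29, a proteasome-binding protein, and 2 resemble a yeast cyclin that is only described as a substrate of the proteasome. The name proteasome subunit therefore does not hold for the cyclin probes. The files give a single gene ID for 17 of the 41 probes (15 different genes, all found in the RefSeq gene table), and the remaining 24 are identified by probe ID and by their best match in another species. A description that cites another species gives a resemblance, and the subunit names below rest on it.

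Fat bodies, the insect organ of storage and protein secretion, came from silkworm larvae (Bombyx mori, strain p50, mixed sex) in the fifth instar. From day 3 of that instar the treated larvae ate mulberry leaves dipped in phoxim, an organophosphate insecticide, at 4 µg/mL, and the controls ate leaves dipped in water. The tissue was taken 24 h later, each experiment used 30 larvae, and RNA of many larvae may thus share an array. Each of 3 two-colour arrays carried phoxim RNA and control RNA of one replicate number. All values are phoxim over control on the log2 scale unless they are called levels. In the file header of replicate 2 the dyes are exchanged (phoxim in Cy3), against the labels, which state no dye swap. The header was followed. Turning replicate 2 as labelled exchanges its RNAs, so every sign given for that array would turn, and with it each statement that a probe lay on one side of 0 on all 3 arrays. Over the 6154 tested probes, replicate 2 correlated with replicates 1 and 3 at Pearson r = 0.03 and 0.27 as the header has it and at -0.03 and -0.27 as labelled, while replicates 1 and 3 correlated at 0.35. These are correlations across genes, which are not independent replicates.

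A probe was tested if, on every array, 1 of its channels or both rose above the level that 95% of the blank control spots stayed under. This held for 6154 probes. Between 27.0% and 44.4% of gene probes exceeded it in Cy5 and between 18.9% and 27.2% in Cy3. Of probes worded as fat body products (storage proteins, 30K proteins, vitellogenin, lipophorins), 35 of 60 were measured, or 58.3% against 26.5% of all gene probes. Of the muscle list 32 of 64 were measured, and 14 of the 64 were above background in no RNA. Whole-tissue RNA was measured, so fewer cells of a type and less RNA per cell cannot be told apart.

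Of the 41 probes, 27 were measured and 14 were not. The measured ones were 12 for the core particle, 14 for the cap and 1 for activator subunit 4. Of the 14 not measured, 8 were above background in no RNA on any array, among them both alpha 1 probes and both ECM29 probes. The others not measured in the core particle were the zeta subunit (LOC692836), 1 of 2 beta type 2 probes (sw16329) and a beta subunit without a number (LOC692896). In the cap they were both probes for regulatory subunit 7, an ATPase, and the probe for non-ATPase subunit 5, which in mammals is an assembly chaperone. No measured proteasome probe was saturated, and 23 of the 27 exceeded background in both RNAs on all 3 arrays.

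No proteasome probe differed between phoxim and control RNA past the threshold. With limma over all 6154 probes, 0 of the 27 had an adjusted p under 0.05, and neither had any other probe (0% of those tested). The smallest adjusted p of a proteasome probe was 0.30. At an unadjusted p under 0.05 there were 3 proteasome probes lower in phoxim RNA (background 4.81%) and 0 higher (background 6.13%). The 3 were both probes for the alpha 2 subunit and the probe for regulatory ATPase 10B. Proteasome probes with the same sign on all 3 arrays numbered 4 below 0 (17.1% of all tested probes) and 1 above 0 (18.2%). In 3 of the 27 the levels of phoxim and control RNA did not overlap, against 13.7% of all tested probes. With replicate 2 as labelled, 0 of the 27 had an unadjusted p under 0.05 in either direction (background 1.06% lower and 3.77% higher). In that setting 5 probes were below 0 on all 3 arrays (background 9.51%) and 3 above 0 (background 15.4%). Those below 0 were alpha 4, non-ATPase 4, 6 and 9 and the non-ATPase 2 probe sw04021. Those above 0 were beta 3, subunit Y and the non-ATPase 2 probe sw00713. No probe of either group can be among the 5 that kept one sign under the header, because only the replicate 2 sign turned. The levels of 2 of the 27, alpha 4 and non-ATPase 4, then did not overlap (background 8.97%). These counts describe the 27 probes and were not tested. Of the 3 probes at an unadjusted p under 0.05, and of the 3 without overlap, 2 are the alpha 2 probes, which read 1 gene. The plot of measured proteasome probes shows their values on each array.

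**Figure D1:**
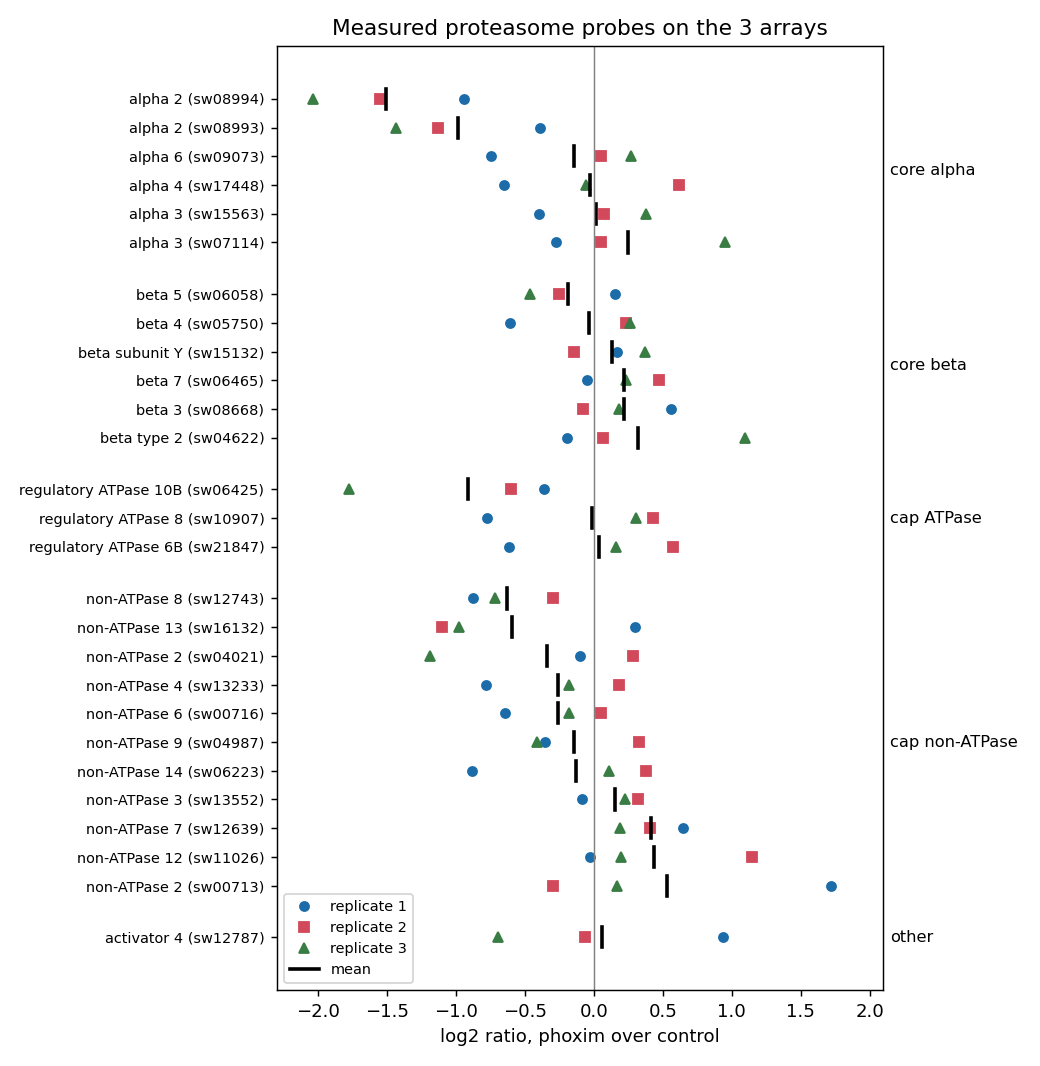
Log2 ratio of phoxim over control (x axis) for each of the 27 measured proteasome probes (rows, grouped by class), with 1 symbol per array and a bar at the mean. With replicate 2 turned as its header has it, both alpha 2 probes, regulatory ATPase 10B and non-ATPase 8 lie below 0 on all arrays, and most replicate 1 symbols lie to the left of 0.

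Among the core particle probes, alpha 2 stood lowest. Alpha 2, called the 25 kDa subunit in the files, belongs to the outer ring of the barrel. Its gene (LOC732876) has 2 probes. For probe sw08994 the log2 level in phoxim RNA was 10.74, 9.84 and 9.16 in replicates 1, 2 and 3, and in control RNA 11.69, 11.40 and 11.20. Every phoxim level lay below every control level. Its log2 ratios were -0.94, -1.55 and -2.04, with a mean of -1.51 ± 0.55 (SD, n = 3), which is 2.85-fold lower (limma unadjusted p = 0.0023, adjusted p = 0.30). For probe sw08993 the phoxim levels were 10.38, 9.50 and 9.10 and the control levels 10.77, 10.64 and 10.54, again without overlap. Its log2 ratios were -0.39, -1.13 and -1.44, with a mean of -0.99 ± 0.54 (SD, n = 3, limma adjusted p = 0.39). The 2 probes read 1 gene and share the RNA, so they are no separate evidence, but on each array sw08994 lay further below 0 than sw08993, by 0.55, 0.42 and 0.60. Over 11 alternative settings the mean of sw08994 stayed between -1.80 and -0.48 and that of sw08993 between -1.28 and -0.23. Both upper ends came from replicate 2 as labelled, where the ratio in that replicate became 1.55 for sw08994 and 1.13 for sw08993, the groups overlapped and the limma unadjusted p was 0.48 and 0.65. The unadjusted p of sw08993 also rose to 0.083 without replicate 2, 0.13 without replicate 3 and 0.088 with median centring.

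With the header's orientation the other alpha subunits showed no such pattern. Alpha 3 (LOC732922) also has 2 probes, and they agreed in sign on all 3 arrays. Probe sw07114 had log2 ratios of -0.28, 0.05 and 0.95, and probe sw15563 had -0.40, 0.07 and 0.38. Alpha 4 (sw17448) stood at -0.65, 0.62 and -0.06. As labelled, its replicate 2 ratio became -0.62, so it was below 0 on all 3 arrays and its levels did not overlap. Its mean was then -0.44 (limma unadjusted p = 0.20). Alpha 6 (LOC732998, sw09073) stood at -0.75, 0.05 and 0.27. All 4 of these probes were below 0 in replicate 1, and in replicates 2 and 3 all but alpha 4 in replicate 3 were above 0.

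The 6 measured beta probes had means between -0.19 and 0.32, with a median of 0.17. Subunits Y, beta 5 and beta 7 correspond to the catalytic subunits of the mammalian barrel. Subunit Y (sw15132), which in mammals cuts after acidic residues, had log2 ratios of 0.17, -0.14 and 0.37. The beta 5 probe (sw06058), for the chymotrypsin-like activity, had 0.15, -0.25 and -0.46. The beta 7 probe (LOC733124, sw06465), which resembles the trypsin-like beta2 subunit of Drosophila, had -0.05, 0.47 and 0.23. None of the catalytic subunits had the same sign on all 3 arrays, but with replicate 2 as labelled subunit Y was above 0 on each of them (mean 0.23). Of the structural subunits, beta 3 (LOC732999, sw08668) stood at 0.56, -0.08 and 0.18. Beta 4 (sw05750) stood at -0.61, 0.23 and 0.26. The highest core mean was that of beta type 2 (sw04622, -0.20, 0.06 and 1.10), with each RNA above background on 2 of 3 arrays. The median SD between arrays was 0.32 for the beta probes and 0.54 for the alpha probes, beside 0.49 for all tested probes.

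In the regulatory cap, the ATPases form a ring that unfolds the substrate. Regulatory ATPase 10B (LOC733024, sw06425) had phoxim levels of 10.07, 8.41 and 8.63 and control levels of 10.43, 9.01 and 10.41. These groups overlap, and the phoxim level was below the control level on each array. The log2 ratios were -0.36, -0.60 and -1.78, with a mean of -0.91 ± 0.76 (SD, n = 3, limma unadjusted p = 0.039, adjusted p = 0.44), and phoxim RNA exceeded background on 2 of 3 arrays. The mean was -0.48 without replicate 3 (unadjusted p = 0.31) and -0.51 with replicate 2 as labelled (unadjusted p = 0.32). Regulatory ATPase 8 (sw10907) stood at -0.78, 0.43 and 0.30, and 6B (LOC732870, sw21847) at -0.62, 0.57 and 0.16. Both were thus below 0 in replicate 1 and above 0 in the other replicates, unlike 10B.

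The KEGG column of the files assigns 4 further measured probes to the proteasome that the wording did not take. Tat-binding protein-1 (sw12124) and P26s4 (sw05881) are named after Drosophila proteins of the ATPase ring. They stood at -0.62, 0.12 and 0.28, and at -0.12, -0.03 and 0.19. The other 2 carry no informative name. Of these, sw12565 was above 0 on all arrays with the header's orientation only (0.55, 0.64 and 0.69, mean 0.63 ± 0.07, SD, n = 3, limma unadjusted p = 0.053, adjusted p = 0.46), and sw01587 stood at -0.09, 0.09 and -0.51. None of these 4 passed the threshold, like every other tested probe (0% passed).

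Among the non-ATPase subunits of the cap, values fell on both sides of 0. Non-ATPase 8 (sw12743), part of the lid that binds and deubiquitinates substrates, had phoxim levels of 11.21, 10.53 and 10.70 and control levels of 12.08, 10.83 and 11.42. The groups overlap, with phoxim lower on each array. Its log2 ratios were -0.87, -0.30 and -0.72, with a mean of -0.63 ± 0.30 (SD, n = 3, limma adjusted p = 0.47), and with median centring the mean was -0.29. Its replicate 2 ratio became 0.30 as labelled. Non-ATPase 7 (LOC733131, sw12639), the partner of the deubiquitinating subunit of the lid, went the other way. Its phoxim levels were 11.84, 12.06 and 11.91 and its control levels 11.19, 11.66 and 11.72, so that every phoxim level exceeded every control level. The log2 ratios were 0.65, 0.40 and 0.19, with a mean of 0.41 ± 0.23 (SD, n = 3, limma adjusted p = 0.61). As labelled, its replicate 2 ratio became -0.40, the groups overlapped and the mean was 0.15. Non-ATPase 14 (LOC692958, sw06223), the deubiquitinating subunit itself, stood at -0.88, 0.38 and 0.11.

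**Figure D2:**
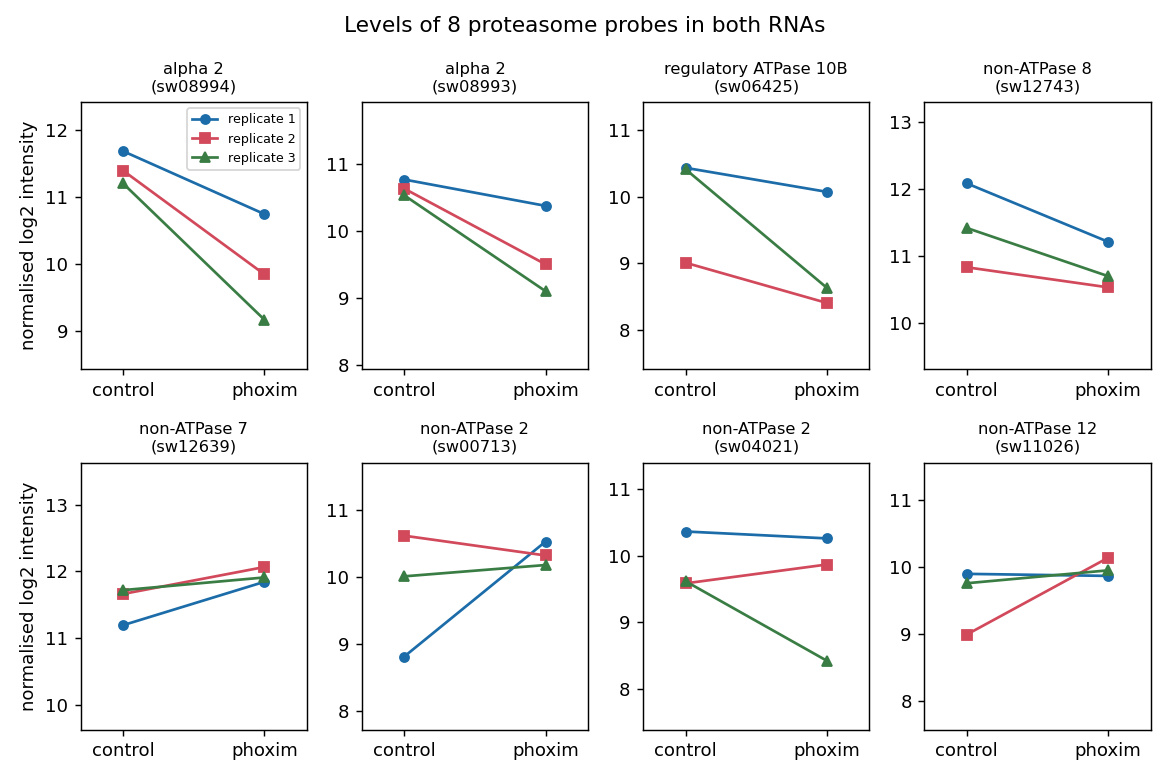
Normalised log2 intensity (y axis, with the same span in every panel) of 8 proteasome probes in control and phoxim RNA, with a line joining both RNAs of an array. With replicate 2 as its header has it, the lines of both alpha 2 probes go down on all 3 arrays and those of non-ATPase 7 go up, while the 2 probes worded as non-ATPase 2 differ in direction on each array.

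Non-ATPase 13 (LOC693113, sw16132), another lid subunit, had log2 ratios of 0.30, -1.11 and -0.98, and non-ATPase 12 (LOC692900, sw11026), a scaffold of the lid, had -0.03, 1.15 and 0.19. Both directions turned when replicate 2 was taken as labelled, to 0.14 and -0.33. Non-ATPase 4 (LOC778515, sw13233), which binds ubiquitin chains, stood at -0.78, 0.18 and -0.18. As labelled, its replicate 2 ratio became -0.18, so it was below 0 on all 3 arrays and its levels did not overlap. Non-ATPase 6 (sw00716) stood at -0.64, 0.05 and -0.18, and non-ATPase 3 (sw13552) at -0.09, 0.32 and 0.22. Both are structural parts of the lid. Non-ATPase 9 (LOC100101158, sw04987), a chaperone of cap assembly in mammals, stood at -0.36, 0.33 and -0.42, with phoxim RNA above background on 2 of 3 arrays.

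The 2 probes worded as non-ATPase 2, the large cap subunit that docks ubiquitin carriers, had opposite signs on every array. Probe sw00713 stood at 1.72, -0.30 and 0.17, and its control level in replicate 1 was 8.81, against 10.62 and 10.01 in the other control samples. Probe sw04021 stood at -0.10, 0.28 and -1.19. They belong to different gene models without a gene ID, so it cannot be said from the files whether they read 1 gene. Outside core and cap, activator subunit 4 (sw12787) had 0.93, -0.06 and -0.70, with either RNA above background on 2 of 3 arrays.

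Taken as groups, the core particle had a median log2 ratio of -0.01 over 12 probes and the cap one of -0.14 over 14, beside 0.003 over all tested probes. In the core particle 6 means were below 0 and 6 above, and in the cap 9 were below and 5 above, where 49.7% of all tested probes were below. The array medians were -0.33, 0.05 and 0.25 for the core particle in replicates 1, 2 and 3, and -0.36, 0.30 and -0.04 for the cap. Both medians thus moved between arrays by more than their distance from 0 (SD of the array medians 0.30 and 0.33). Without replicate 1 the core median was 0.19 and the cap median -0.02, without replicate 2 they were -0.08 and -0.36, and without replicate 3 they were -0.09 and -0.10. With replicate 2 as labelled the core median was -0.06 and the cap median -0.34, beside 0.04 over all tested probes. With median centring in place of loess the median of all tested probes shifted by 0.23, and the core and cap medians became 0.33 and 0.14, or 0.10 above and 0.10 below that of all probes.

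In replicate 1, 20 of the 27 proteasome probes were below 0, where 43% of all tested probes were. These were 9 of 12 core probes and 11 of 14 cap probes. The count was 10 of 27 in replicate 2 (background 54.9%) and 12 of 27 in replicate 3 (background 50%). With replicate 2 as labelled its count was 17 of 27 (background 45.1%), and its core and cap medians were -0.05 and -0.30. The measured muscle probes, which are markers of another tissue, had medians of 2.09, 0.12 and 0.52 on the same arrays, and 26 of 32 had a mean above 0. Their summed linear level ranged from 111234 to 181673 in phoxim RNA and from 37055 to 108279 in control RNA. Replicate 1 was thus the array with the lowest proteasome medians and the highest muscle median. With the header's orientation it also had the highest median of all tested probes (0.13) and of the fat body list (0.75). Of the lists worded for other tissues, only midgut was highest elsewhere with that orientation (0.54 in replicate 3). As labelled, silk gland (0.51) and testis and ovary (0.33) were highest in replicate 2. The part of muscle RNA, or of RNA of other tissues, in these array differences was not tested.

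A further beta subunit gene (LOC100101166, probe sw15061) was printed as a positive control and gives the spread of repeated spots within an array. It has 49 spots spread over all 48 printing blocks of each array and, as control spots, these had no weight in the loess fit. That fit was made over each whole array, so the SD over spots includes any effect of spot position. The log2 ratio over the 49 spots was -0.77 ± 0.17 (SD over spots) in replicate 1, -0.15 ± 0.20 in replicate 2 and 0.15 ± 0.22 in replicate 3. All 49 spots were below 0 in replicate 1, 34 in replicate 2 and 15 in replicate 3. The mean over arrays was -0.26 ± 0.47 (SD, n = 3), so the arrays differed 2.41 times as much as spots within an array. Repeated spots share 1 RNA pair and are no replicates of the treatment. This gene was lowest in replicate 1, as were the core and cap medians.

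**Figure D3:**
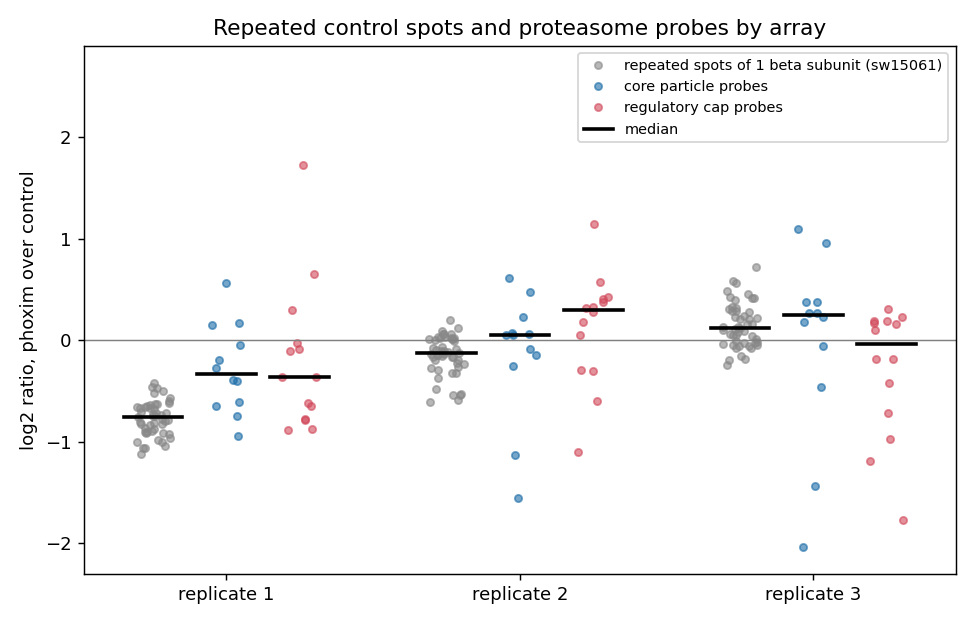
Log2 ratio of phoxim over control (y axis) on each array for the 49 repeated spots of the beta subunit probe sw15061 (grey), the 12 core particle probes (blue) and the 14 cap probes (red), with bars at the medians. The median of the grey spots moves from -0.76 in replicate 1 to 0.12 in replicate 3, where the spots span -0.24 to 0.72.

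The genes that lead proteins to the proteasome were taken by wording as well. Ubiquitin is activated and attached by E1, E2 and E3 enzymes and removed by deubiquitinating enzymes. Ubiquitin-tagged proteins are drawn out of complexes by the p97 ATPase and its cofactors. The COP9 signalosome, a complex built like the lid, controls a class of E3 ligases. In none of these lists did a probe pass the threshold in either direction, as in all 6154 tested probes (0% passed). The measured probes were 14 of 31 for E1 and E2, 30 of 87 for E3, 17 of 42 for deubiquitinating enzymes, 6 of 12 for p97 and shuttle factors and 4 of 4 for COP9, and the median log2 ratios were -0.08, -0.10, -0.13, -0.59 and 0.03. The median turned to 0.11 for deubiquitinating enzymes and -0.18 for COP9 with replicate 2 as labelled. No probe matched the wording for ubiquitin precursors.

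For p97 and shuttle factors, 5 of 6 probes were below 0 on all 3 arrays (background 17.1%), and with replicate 2 as labelled 0 of 6 were (background 9.51%), with a list median of -0.28. Ter94 (sw00464), the p97 ATPase itself, had log2 ratios of -0.94, -0.04 and -1.67, with a mean of -0.88 ± 0.81 (SD, n = 3, limma adjusted p = 0.45). A probe for the p97 cofactor p47 (sw01884) had -0.50, -0.26 and -1.04, with phoxim RNA above background on 2 of 3 arrays. Of the deubiquitinating enzymes, a probe resembling ubiquitin carboxyl-terminal hydrolase 14 (sw16400), which in mammals acts on substrates at the cap, had -1.07, -0.69 and -1.97. Its mean was -1.24 ± 0.66 (SD, n = 3, limma unadjusted p = 0.0083, adjusted p = 0.35). It was lower on each array with the header's orientation only, as were the alpha 2 probes, and did not pass either. A probe resembling ubiquitin specific protease 20 (sw15773) had a mean of -0.45 ± 0.18.

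Among the conjugating enzymes, LOC692982 (sw18662), an E2, had log2 ratios of -1.34, 0.13 and -1.31, and a probe resembling the E1 enzyme (sw11176) had -0.15, -0.54 and -1.14. Of the E3 ligases, a probe resembling SIAH1 (sw05408) had a mean of -1.02 ± 0.40 with phoxim RNA above background on 2 of 3 arrays, and one resembling itchy (sw08652) had -0.58 ± 0.41. COP9 subunit 5 (sw00232), its catalytic subunit, had -0.53 ± 0.32 and COP9 subunit 8 (sw13292) 0.26 ± 0.24. The E1 and E2 list shared the order of arrays with the cap, with medians of -0.47, 0.30 and -0.02 in replicates 1, 2 and 3. So did the COP9 list, with -0.29, 0.26 and 0.007. The E3 list did not, with -0.09, -0.19 and -0.28. As labelled, the replicate 2 medians of the E1 and E2, COP9 and E3 lists became -0.30, -0.26 and 0.19.

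**Figure D4:**
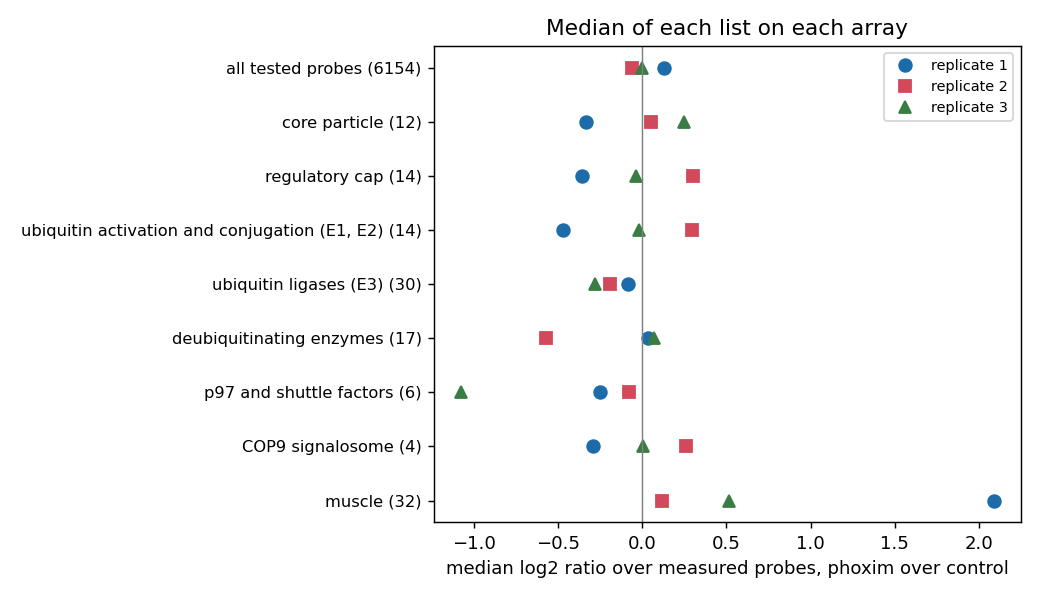
Median log2 ratio over the measured probes of each list (x axis, number of probes in brackets) on each array, with 1 symbol per array. The core particle, the cap, the E1 and E2 list and the COP9 list lie lowest in replicate 1, where the muscle list reaches 2.09.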

How the data were processed

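The study compared phoxim with control RNA on 3 two-colour arrays. Per the labels' protocols, RNA was amplified as cRNA and labelled with Cy3 or Cy5 as cDNA. The deposited intensity values of both channels were used. They include values below 0 and so appear background-subtracted, by a method the labels and headers do not name. The deposited ratio is phoxim over control per the file headers, and the deposited log2 table matched the log2 of that ratio within 5e-09 on every row with a ratio above 0. Its column medians were 0.01, -0.02 and 0.05. How the authors centred it stays unknown, while its scale and direction follow from that match.

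With limma 3.58.1 (R 4.3.3), normexp (offset 50) and within-array loess (control spots at weight 0) gave log2 ratios. Lists of genes were described by counts and medians only. The mean ratio was set against 0 in lmFit and eBayes (two-sided), and p-values were adjusted over 6154 probes after Benjamini-Hochberg, with a threshold of 0.05. Levels are per channel after loess and Aquantile normalization, and remain open to dye bias. The labels call the samples biological replicates, and 3 arrays limit the precision. Every measured proteasome probe is named, and the 2 smallest p-values of each pathway list. Members and lists were chosen with earlier results of these data known. RefSeq names come from the table of assembly ASM3026992v2, and no coordinates are given because the files name no genome build. Probe sequences of these genes were not used here.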

Additional observations from a re-analysis of the deposited data

How the results depend on the processing

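The alternatives were no background correction, median centring, the deposited ratios, no dim filter, a stricter dim filter, a dye term, replicate 2 turned as labelled, array weights and each array left out. Each called 0 probes, with a smallest limma adjusted p of 0.097 to 0.79. In the settings that tested 6154 probes, 297 to 1005 had a limma unadjusted p under 0.05. There were 1869 of 23229 with no dim filter and 349 of 3800 with the stricter one. No proteasome probe passed under any of them (smallest adjusted p 0.13). The core median moved by more than its spread between arrays with median centring only (0.33), and with an array left out it ranged from -0.09 to 0.19. The cap median ranged from -0.36 to -0.02 with an array left out. Taking 1 probe per gene left the core median at -0.01 over 10 probes. In the cap no measured probes share a gene ID, so all 14 stayed and its median could not change. Probes without a gene ID were each counted as a gene. The test is paired by construction, since each ratio joins the treated and control RNA of 1 replicate number on 1 array, and no fit without that pairing was made.

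Of the 27 measured probes, 7 kept their direction under all alternatives that gave a value: both alpha 2 probes, regulatory ATPase 10B, non-ATPase 7 and 8, beta 3 and subunit Y. The others changed sign at least once, none of them past the threshold on either side, and the cause was not tested. Dim filters leave the values of a probe as they are, so those settings could turn no sign. The alpha 2 probes, ATPase 10B and non-ATPase 7 and 8 each had one sign on all 3 arrays under the header. For them the dye term, array weights and leaving an array out only average values of one sign. Those settings could thus not turn their direction either. With median centring, which raised the median of all tested probes by 0.23, the value turned to 0.32 for ATPase 8, 0.19 for non-ATPase 14, 0.076 for non-ATPase 4, 0.089 for non-ATPase 6, 0.069 for non-ATPase 9, 0.30 for alpha 4, 0.20 for alpha 6, 0.29 for beta 4 and 0.16 for beta 5. With the deposited ratios it turned to 0.11 for ATPase 8, 0.00014 for non-ATPase 14, 0.016 for non-ATPase 9, 0.32 for alpha 4, 0.054 for alpha 6, 0.20 for beta 4 and 0.020 for beta 5. With array weights it turned to 0.15 for ATPase 8, 0.016 for non-ATPase 14, 0.036 for alpha 4, 0.031 for alpha 6, 0.10 for beta 4 and -0.23 for activator 4. With a dye term it turned to 0.094, 0.13 and 0.029 for ATPase 8, alpha 4 and beta 4, and without background correction to 0.0089, 0.018 and 0.0013. With replicate 2 as labelled it turned to -0.34 for ATPase 6B, -0.33 for non-ATPase 12, 0.14 for non-ATPase 13, -0.061 for non-ATPase 3, -0.031 for alpha 3 (sw15563) and -0.096 for beta 7.

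With 1 array left out, values on both sides of 0 were seen for sw00713 (-0.063 to 0.95) and sw04021 (-0.65 to 0.090), both worded as non-ATPase 2, and for beta type 2 (-0.066 to 0.58), beta 4 (-0.19 to 0.25), non-ATPase 14 (-0.39 to 0.24) and non-ATPase 4 (-0.48 to 0.00084). The same held for alpha 3 (-0.11 to 0.50 for sw07114 and -0.16 to 0.22 for sw15563), alpha 4 (-0.36 to 0.28), alpha 6 (-0.35 to 0.16), ATPase 8 (-0.24 to 0.36), ATPase 6B (-0.23 to 0.37) and activator 4 (-0.38 to 0.44).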
